A study of Mus musculus with 72 samples.

Results

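SmcHD1 knockout (KO) clone D5 was compared with its parental line, iXist-ChrX-Cast wild type (WT), over the first days of Xist induction and neural differentiation. All libraries of both at days 2, 3, 5 and 7 were taken, which gave 11 libraries of D5 from 8 replicates and 11 libraries of WT from 11 replicates, out of 72 libraries in the series. D5 had 2 replicates on each day, and WT had 2 at day 2 and 3 on each other day. In 3 of the D5 replicates (replicate 1 of days 3, 5 and 7) a pair of libraries, R1 and R2, was counted as 1 replicate. The cells are female (XX) mouse embryonic stem cells from a cross of Dom/129S with Cast, in which a doxycycline-inducible TetOn promoter replaces the Xist promoter on the Cast X, and WT and D5 both carry it. Both received 1 µg/mL doxycycline throughout differentiation towards neural precursor cells (NPCs). D5 is 1 clone, made with a pair of Cas9 guides in exons of Smchd1, so that the loss of SmcHD1 and any other property of this clone cannot be told apart. A second KO clone of the same parent, G6 (11 libraries, 8 replicates), was used where it shows whether a value was particular to D5.

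Xist is a long noncoding RNA that coats the X chromosome it is made from and brings about its silencing. SmcHD1 is a noncanonical SMC (structural maintenance of chromosomes) protein that joins the inactive X (Xi) at a late step, is needed to keep part of its genes silent, and also acts on imprinted and other clustered genes of autosomes. Chromatin-associated RNA sequencing (ChrRNA-seq) reads RNA still bound to chromatin, which is mostly newly made. Here Xi is the Cast X, so the Cast share of a gene, the fragments of the Cast allele over those of both alleles, is its residual expression from Xi. Levels are given as RPM, fragments of a gene per 1000000 fragments counted in the library, and differences as log2 fold changes of D5 over WT with day as a factor.

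Depth was 20804102 to 30424283 fragments per D5 library and 20742617 to 31107643 per WT library. Libraries were named in different styles, NPCd for replicate 2 of D5 on each day and for 1 WT replicate a day, and d or NPC_d for the rest. Deviations from the day means correlated over genes between D5 and WT libraries of 1 style in 10 of 10 pairs (median r of 0.446). These pairs are not independent, since both D5 replicates of a day deviate from their mean by the same amount in opposite directions. Within-style values are given beside the pooled ones for some results only, and all other values are pooled over the styles. What the styles stand for was not stated in the sources used here.

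Of 15862 genes tested, 1294 differed between D5 and WT over days 2 to 7 (edgeR quasi-likelihood test, Benjamini-Hochberg adjusted p below 0.05), 533 higher (3.36%) and 761 lower (4.8%) in D5, which is 8.16% of the genes tested. D5 replicates lay on 1 side of every WT replicate on at least 3 of the 4 days for 741 of them. Scaling to library totals in place of TMM (trimmed mean of M values) factors gave 1222 genes, with 688 higher and 534 lower, so the balance of directions depends on the scaling. The count was 803 without replicate 1 of D5 at day 7 and 827 without replicate 1 of D5 at day 5. At days 2 and 3 alone 24 of 15264 genes passed (0.157%), 18 higher (0.118%) and 6 lower (0.0393%), and at days 5 and 7 alone 139 of 15341 (0.906%), 73 higher (0.476%) and 66 lower (0.43%). Each of the 9 replicates of days 2 and 3 decided the first count, which was 0 to 7 when any was left out. The second was 9 without replicate 1 of D5 at day 7, 17 without replicate 1 of D5 at day 5, 38 without replicate 2 of D5 at day 7, 61 without replicate 3 of WT at day 5, and 78, 53 and 58 without replicates 1, 2 and 3 of WT at day 7. Of the 24 genes 16 were also among the 139, each with the same sign. A change in the difference between D5 and WT from days 2 and 3 to days 5 and 7 was tested as an interaction, and 0 genes passed in edgeR (292 at an unadjusted p below 0.05) and 0 in DESeq2 (325 unadjusted).

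A large part of the genes called came from a few chromosomes. Chromosome 5, the distal part of chromosome 6 past 120 Mb and chromosome 11 together held 537 of the 1294 genes (41.5%), 18 of the 24 called at days 2 and 3 (75.0%) and 88 of the 139 called at days 5 and 7 (63.3%). On the other chromosomes and the rest of chromosome 6, 757 of 13411 tested genes were called (5.64%). With the genes of chromosomes 5, 6 and 11 left out before the fit, an alternative chosen after seeing the data, 503 genes passed over days 2 to 7, 1 at days 2 and 3 and 0 at days 5 and 7. Edges of the stretches described next were set by eye after the values of level and share were seen and are approximate, and positions (mm10) were read from the count files.

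The sharpest stretch was the end of chromosome 6, from Rad52 (chr6:119902697-119922823, which encodes a DNA repair protein) to Mettl20 (ending at position 149151170). Of 214 genes tested there, 124 were higher in D5 and 0 lower (57.9%), with a median log2 fold change of 0.58, and 197 of the 214 had an estimate above 0. The median level of the stretch against the WT mean of the same day was 0.51 to 0.65 on the log2 scale in the 8 D5 replicates, -0.05 to 0.06 in the 11 WT replicates and -0.01 to 0.10 in the 8 G6 replicates, so D5 did not overlap either. The Cast share stood apart as well. Over 118 genes with allelic fragments the median Cast share was 0.472 to 0.482 in WT and 0.465 to 0.495 in G6, but 0.642 to 0.657 in D5. The D5 cells that had not been induced, at day 0, stood at 0.649 and 0.669, and those of G6 at 0.484. Uninduced WT was not analysed here.

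The edge of this stretch lay between neighbouring genes. Erc1, the last gene tested before it with allelic fragments, had a log2 fold change of -0.14 (SE 0.10, edgeR adjusted p = 0.43), and its Cast share was 0.505 to 0.554 in WT and 0.498 to 0.573 in D5. Rad52 stood at 27.6 and 27.2 RPM in WT at day 2, 23.4, 20.1 and 24.2 at day 3, 22.8, 19.4 and 20.5 at day 5, and 19.9, 18.4 and 14.8 at day 7. In D5 it stood at 45.6 and 49.9, 41.1 and 41.3, 36.7 and 39.1, and 34.6 and 33.3 RPM on the same days. Rad52 was thus above WT without overlap on all 4 days (log2 fold change 0.82, SE 0.07, edgeR adjusted p = 1.25e-06), and it passed at days 2 and 3 and at days 5 and 7 alone. Its Cast share was 0.427 to 0.663 in WT and 0.682 to 0.823 in D5. Wnk1, the next gene, had a Cast share of 0.482 to 0.502 in WT and 0.648 to 0.676 in D5. At the far end, Amn1 had a log2 fold change of -0.17 (edgeR adjusted p = 0.28) and Cast shares of 0.443 to 0.530 in WT and 0.434 to 0.528 in D5. Inside the far edge Fam60a had 0.40 (edgeR adjusted p = 0.00329) and a Cast share of 0.388 to 0.508 in WT and 0.583 to 0.647 in D5. The next gene, Dennd5b, had -0.07 (edgeR adjusted p = 0.524) and overlapping shares (0.178 to 0.374 in WT, 0.286 to 0.398 in D5), while Mettl20 had 0.72 (edgeR adjusted p = 0.0152), so the far edge lay between Fam60a and Amn1 and was not placed more closely. The 572 genes before Rad52 had a median log2 fold change of 0.02, with 8 higher and 29 lower.

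Chromosome 5 differed in the opposite direction over most of its length. Before Fbxl18, 246 of 917 genes were lower in D5 and 0 higher (26.8%), with a median log2 fold change of -0.25, and the level of the stretch was -0.30 to -0.19 in D5 against -0.02 to 0.04 in WT and -0.15 to -0.01 in G6. The Cast share was 0.651 to 0.681 in D5, 0.633 to 0.661 in WT and 0.632 to 0.647 in G6, so WT and G6 too were far from 0.5 there. Tnrc18, the last of these genes, had a log2 fold change of -0.07 and a Cast share of 0.483 to 0.585 in WT and 0.588 to 0.740 in D5, so its share already stood apart. A short stretch near the end, from Fbxl18 (chr5:142871788-142895238) to Cyp3a57 (ending at position 145390512), went the other way. Of its 46 genes 16 were higher and 0 lower (34.8%), 41 had an estimate above 0, and the median was 0.24. Its Cast share was 0.753 to 0.774 in D5, against 0.642 to 0.673 in WT and 0.635 to 0.660 in G6, and 0.751 and 0.771 in uninduced D5. Arpc1b, a subunit of the Arp2/3 actin complex, is an example that was chosen after its values were seen (15.6 to 34.7 RPM in WT, 27 to 57.3 RPM in D5; log2 fold change 0.57, SE 0.13, edgeR adjusted p = 0.00955). Of the 43 genes past Cyp3a57, 12 were lower and 1 higher, 37 had an estimate below 0, and the median was -0.24.

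On chromosome 11 the shift was smaller and covered the whole chromosome. Of 1228 genes 129 were higher and 11 lower (11.4%), 78.3% had an estimate above 0, and the median log2 fold change was 0.17. All 13 windows of 10 Mb had a median above 0, from 0.05 to 0.22. The level was 0.07 to 0.29 in D5, -0.04 to 0.04 in WT and -0.09 to 0.03 in G6. The Cast share overlapped between them (0.469 to 0.483 in D5, 0.468 to 0.483 in WT). Within D5 the level was 0.09 to 0.15 in the 3 R1 libraries, 0.30 to 0.38 in the 3 R2 libraries and 0.07 to 0.16 in replicate 2 of the same days. The Cast share of chromosome 5 before 140 Mb was 0.667 to 0.687 in R1, 0.631 to 0.632 in R2 and 0.661 to 0.681 in replicate 2. That of distal chromosome 6 was 0.644 to 0.648, 0.649 to 0.651 and 0.647 to 0.655. R1 and R2 thus stood apart on chromosomes 5 and 11, and their part in the results there was not tested. Medians of the other 16 autosomes lay between -0.04 and 0.05. DNA copy number was not measured in these libraries.

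**Figure D1:**
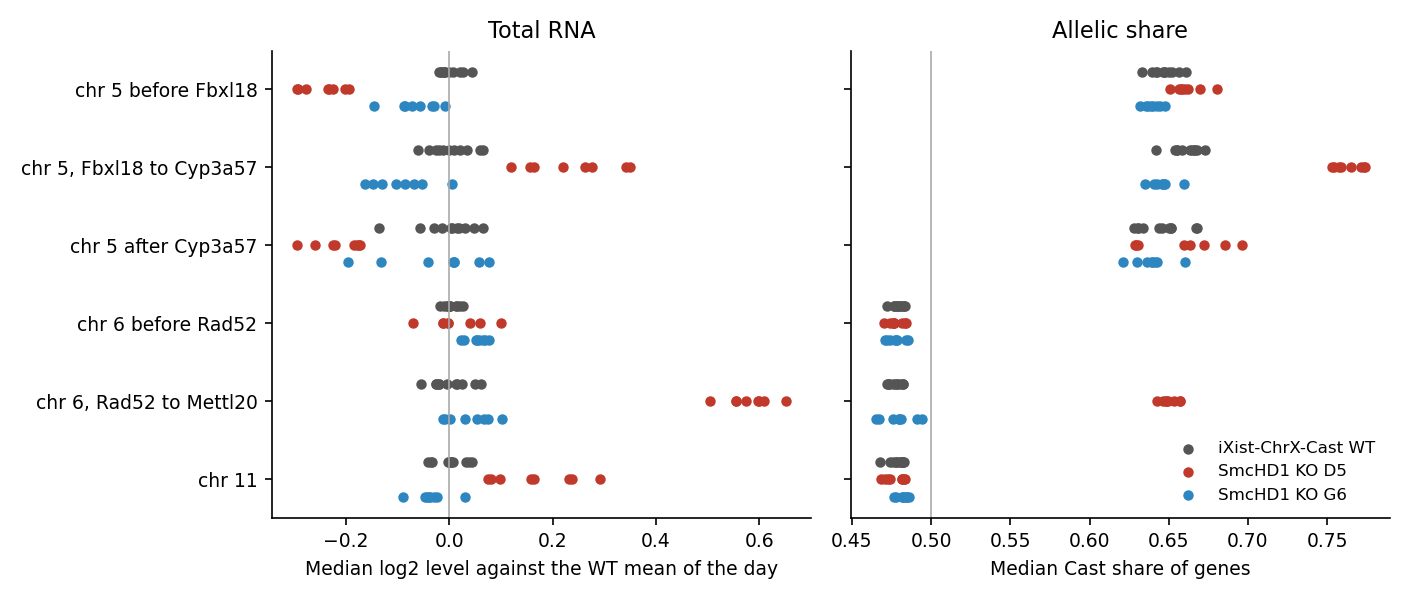
Median log2 level of all tested genes of a stretch against the WT mean of the same day (left) and median Cast share of its genes (right), with 1 point per replicate of days 2 to 7 for WT (n = 11), D5 (n = 8) and G6 (n = 8). D5 stands apart from WT and G6 on chromosome 6 from Rad52 to Mettl20 (0.51 to 0.65 in level and 0.642 to 0.657 in share) and on chromosome 5 from Fbxl18 to Cyp3a57, while on chromosome 11 the shares overlap.

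Among single genes, the 12 with the largest positive and the 12 with the largest negative log2 fold change were taken from those called whose D5 replicates lay on 1 side of every WT replicate on at least 3 days. Grb10, an imprinted gene that encodes an adaptor protein restraining growth signals, was among the highest. Its levels in WT were 51.1 and 53.9 RPM at day 2, 67.2, 41.8 and 45.5 at day 3, 17.4, 11.8 and 14 at day 5, and 4.00, 6.87 and 7.30 at day 7. In D5 they were 106 and 116, 144 and 119, 58.6 and 34.2, and 63.7 and 27.9 RPM. Grb10 was lower at days 5 and 7 than before in both, and D5 lay above every WT replicate on all 4 days (log2 fold change 1.74, SE 0.23, edgeR adjusted p = 0.000119). It lies on chromosome 11, where the median shift was 0.17, and G6 stood at 6.49 to 59.7 RPM. The log2 fold change was 1.31 within the NPCd style and 2.07 within the other styles. Its allelic fragments came from both alleles in like amounts, with a Cast share of 0.502 in WT (1674 Cast and 1661 Dom fragments) and 0.524 in D5 (5226 and 4738 fragments).

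Peg12, a paternally expressed imprinted gene of the Prader-Willi region, was higher on all 4 days as well (log2 fold change 1.49, SE 0.26, edgeR adjusted p = 0.00194). It went in WT from 0.360 and 0.378 RPM at day 2 to 1.4, 1.77 and 2.41 RPM at day 7, and in D5 from 0.424 and 0.972 to 4.04 and 6.87 RPM. The log2 difference of D5 over G6 was 0.09 (SE 0.19, edgeR adjusted p = 0.752), and G6 reached 4.07 and 5.00 RPM at day 7. Among the 43 imprinted genes tested, 5 were higher and 1 lower, beside 3.36% higher and 4.8% lower over all genes, with a median of 0.08 against 0.02 over all genes. Mkrn3 (0.69) and Ndn (0.75), which neighbour Peg12, and Slc38a4 (0.50), a placental amino acid transporter, were the other higher genes, and Airn, the noncoding RNA that silences its imprinted cluster, was lower (-0.67).

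Klf17, a Krüppel-like factor, was higher on 4 of 4 days (1.45, SE 0.27, edgeR adjusted p = 0.00307), from 0.755 and 1.41 RPM at day 2 in WT against 1.61 and 2.41 in D5. X-linked Usp26, a ubiquitin protease gene known from testis, stood at 18.7 and 28.6 RPM in WT and 87.3 and 46.6 in D5 at day 2, and at 0.820, 2.79 and 2.96 in WT and 8.77 and 1.73 in D5 at day 7, where the groups overlapped. Its log2 fold change of 1.74 (SE 0.36, edgeR adjusted p = 0.006) was 2.60 within the other styles but 0.37 within the NPCd style, and R2 libraries exceeded R1 libraries (153 against 42.7 RPM at day 3). A2m (1.37), which encodes a protease inhibitor, and Slco1a4 (1.65), an anion transporter gene, lie in the chromosome 6 stretch. The other higher genes were 4933427D06Rik (1.90), Gm21949 (1.60), Olfr658 (1.54), G630093K05Rik (1.41), Tmem200c (1.38) and Arhgap36 (1.32), all at or below 3.00 RPM in D5 and WT at these days, and the reads of Olfr658 may be shared with other olfactory receptor genes.

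On the lower side, Nrg2, a neuregulin that activates ErbB receptors, had the highest level of the 12 together with Spock1. It stood at 29.8 and 28.5 RPM in WT at day 2, 23.4, 27.9 and 40.2 at day 3, 11.5, 26.8 and 54.8 at day 5, and 4.24, 22 and 37.4 at day 7. D5 had 12.1 and 11.9, 9.48 and 9.21, 3.34 and 11.4, and 2.01 and 3.03 RPM. Nrg2 was below every WT replicate on all 4 days (-2.08, SE 0.38, edgeR adjusted p = 0.0028), passed at days 2 and 3 alone, and was lower than in G6 too (-2.89). Spock1, a proteoglycan gene, was lower by -1.98 (SE 0.52) with a wide range in WT (10.7 to 145 RPM). Prdm6 (-1.97), a transcriptional regulator of smooth muscle, went in WT from 1.42 and 2.39 RPM at day 2 to 8.20, 8.53 and 19.1 at day 7, whereas D5 stayed at 0.904 to 2.88 RPM. Dpep1 (-2.47), a dipeptidase gene, and Bace2 (-1.98), a membrane protease gene, were below WT on 3 and 4 days. 4930532M18Rik had 59 fragments over 9 of 11 WT replicates and 0 in all D5 and all G6 replicates of these days. Against a floor of 3 fragments over the D5 group it was at least 20.1-fold lower, but the second uninduced D5 replicate held 0.303 RPM. The remaining genes were Krt23 (-3.27), Olfr1163 (-3.15), 9630013A20Rik (-3.13), Pcsk2os2 (-2.73), 2610203C22Rik (-2.44) and Gm609 (-2.0), all below 4.00 RPM in WT.

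Few of the early calls lay elsewhere. At days 2 and 3, 14 of the 24 genes lay past 120 Mb of chromosome 6, 3 on chromosome 5 and 1, Grb10, on chromosome 11. Rad52, just before 120 Mb, is the first gene of the chromosome 6 stretch. The others, named because they were few, were Nrg2, Sp110, Pros1, Kirrel and Nxt2. X-linked Nxt2, an mRNA export factor gene, stood at 7.41 and 15.7 RPM in WT against 26.8 and 27.5 in D5 at day 2, and at 5.59, 5.92 and 6.17 against 13.6 and 10.5 at day 7. It was above WT on all 4 days (1.19, SE 0.12), and its Cast share overlapped at day 2 (0.113 and 0.104 in WT, 0.0929 and 0.113 in D5) and was below WT at day 3 (0.0843, 0.106 and 0.0887 in WT, 0.0428 and 0.0352 in D5). Pros1, the gene of anticoagulant protein S, was lower on all 4 days (-0.70, SE 0.09), with 24.6 and 26.6 RPM in D5 and 42.7 and 45.4 in WT at day 2. Sp110 (1.37 at days 2 and 3) stood at 0.46 at days 5 and 7 and did not pass there, and Kirrel (-0.76 at days 2 and 3) at -0.09.

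Several of the lowest genes are known from primitive endoderm, the extraembryonic layer that a small part of embryonic stem cells can enter, in which Gata4 and Gata6 are the leading transcription factors. A list of 29 extraembryonic endoderm genes was therefore drawn up after these values were seen and is given as a description only. Of 27 tested, 12 were lower and 0 higher, beside 4.8% lower and 3.36% higher over all genes. An estimate below 0 was found for 26, and the median log2 fold change was -1.38 against 0.02 over all genes. A shorter list of mesoderm and endoderm markers, which shares 5 genes with it, had 2 of 9 lower (Gata4 and Gata6), 9 of 9 below 0 and a median of -1.01, and 0 lower when day 3 or day 7 was left out. In bulk RNA, fewer cells of a type and less RNA per cell cannot be told apart.

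The list holds transcription factors, endocytic receptors of the visceral layer and basement membrane genes. Gata4 (chr14:63198914-63245260) stood in WT at 19 and 27.3 RPM at day 2, 22.8, 23.2 and 52.8 at day 3, 20.4, 43.6 and 96.7 at day 5, and 20.1, 50.8 and 99.8 at day 7. D5 had 4.41 and 10.9, 4.03 and 14.1, 3.83 and 28.7, and 4.02 and 19.5 RPM. D5 was below every WT replicate at days 2, 3 and 7, but at day 5 its higher replicate overlapped WT (-1.96, SE 0.43, edgeR adjusted p = 0.00922). G6 lay at the other end, at 39.7 to 135 RPM. In both genotypes the NPCd libraries were the high ones, and the log2 fold change was -1.94 within that style and -2.77 within the others. Gata6 was lower by -1.95 (SE 0.46), Hnf4a by -1.73 (SE 0.44) and Sox7 by -1.57 (SE 0.43). Sox17, at -1.72, missed the threshold (edgeR adjusted p = 0.0538), as did Foxa2 at -1.01 (edgeR adjusted p = 0.127).

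Of the endocytic genes, Cubn, which encodes cubilin, was lower by -2.01 (SE 0.56), its partner Amn by -1.67 (SE 0.51) and the clathrin adaptor Dab2 by -1.01 (SE 0.24), while Lrp2, the megalin gene, had -0.08 (edgeR adjusted p = 0.848). Pdgfra, a receptor of this layer that lies on chromosome 5, had -1.65, Pth1r -1.50, Ihh -1.73 and Srgn -1.78, all past the threshold. Of the basement membrane genes of the list none passed, with Lama1 at -1.59, Col4a2 at -1.32, Col4a1 at -1.22 and Sparc at -0.73, while Lamc1, a laminin gene outside the list that was looked up after the values were seen, had -1.06 (edgeR adjusted p = 0.0298). The summed level of the list was 923 to 4412 RPM in D5 (median 2202), 1539 to 10293 in WT (median 3845) and 2527 to 8902 in G6 (median 4997), so the sums of D5 and WT overlapped. Outside chromosomes 5, 11 and distal 6, 10 of 24 genes were lower, beside 492 of 13411 over all genes there. The median of the 27 was -1.39 within the NPCd style and -1.82 within the other styles. The count of lower genes among the 27 was 0 when day 3 or day 7 was left out, with medians of -1.50 and -1.41, 6 without day 2 and 4 without day 5. Among single replicates it was 4 without replicate 1 of D5 at day 7, 5 without replicate 1 of D5 at day 5, and 7 without replicate 1 of D5 at day 3 or without replicate 2 of WT at day 2, 3 of WT at day 3 or 3 of WT at day 5.

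GATA factors bind the letters AGATAA and TGATAA, and promoters of the list were therefore read from RefSeq (GRCm38.p6, 250 bases before to 50 after the start). These letters were searched on both strands, and 6115 of 32851 promoters of this length held at least 1 (18.6%), as did 2 of the 8 called list genes that had an entry (25%). Gata4, Gata6 and Sox7 had no entry. A match describes letters only. The promoter of Dab2 (chr15:6299539-6299838, plus strand) held 2 matches, starting at bases 72 and 265 and shown in capitals, and that of Cubn (chr2:13491827-13492126, minus strand) held 0.
Dab2: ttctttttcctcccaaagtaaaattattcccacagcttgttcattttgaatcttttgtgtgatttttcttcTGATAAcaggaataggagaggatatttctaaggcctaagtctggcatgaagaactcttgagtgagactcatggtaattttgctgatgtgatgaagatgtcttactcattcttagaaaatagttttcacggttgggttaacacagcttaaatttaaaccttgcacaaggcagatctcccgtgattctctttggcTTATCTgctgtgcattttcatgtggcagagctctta
Cubn: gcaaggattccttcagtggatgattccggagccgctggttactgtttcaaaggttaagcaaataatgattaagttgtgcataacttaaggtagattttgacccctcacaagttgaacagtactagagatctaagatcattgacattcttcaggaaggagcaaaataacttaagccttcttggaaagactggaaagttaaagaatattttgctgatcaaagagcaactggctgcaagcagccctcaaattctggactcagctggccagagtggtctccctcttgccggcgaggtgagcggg

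**Figure D2:**
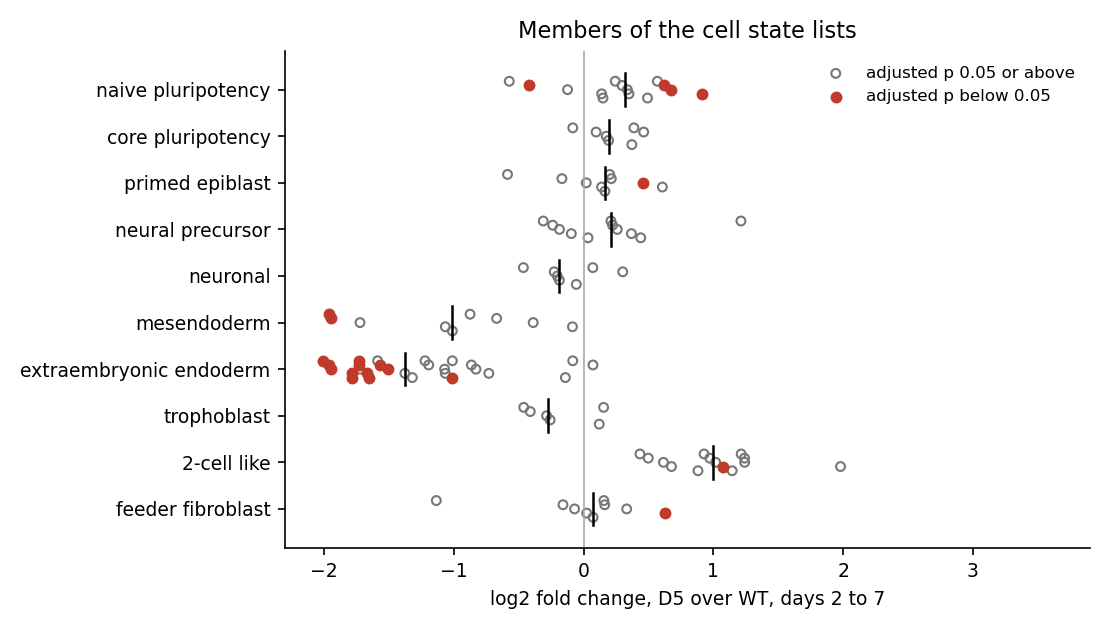
Log2 fold change of D5 over WT at days 2 to 7 for each tested member of 10 lists of cell state markers, with filled points for genes past an adjusted p of 0.05 and a bar at the median of each list. The extraembryonic endoderm list, drawn up after its values were seen, has a median of -1.38 and the mesendoderm list of -1.01, and the other medians lie between -0.27 (trophoblast) and 0.99 (2-cell like).

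**Figure D3:**
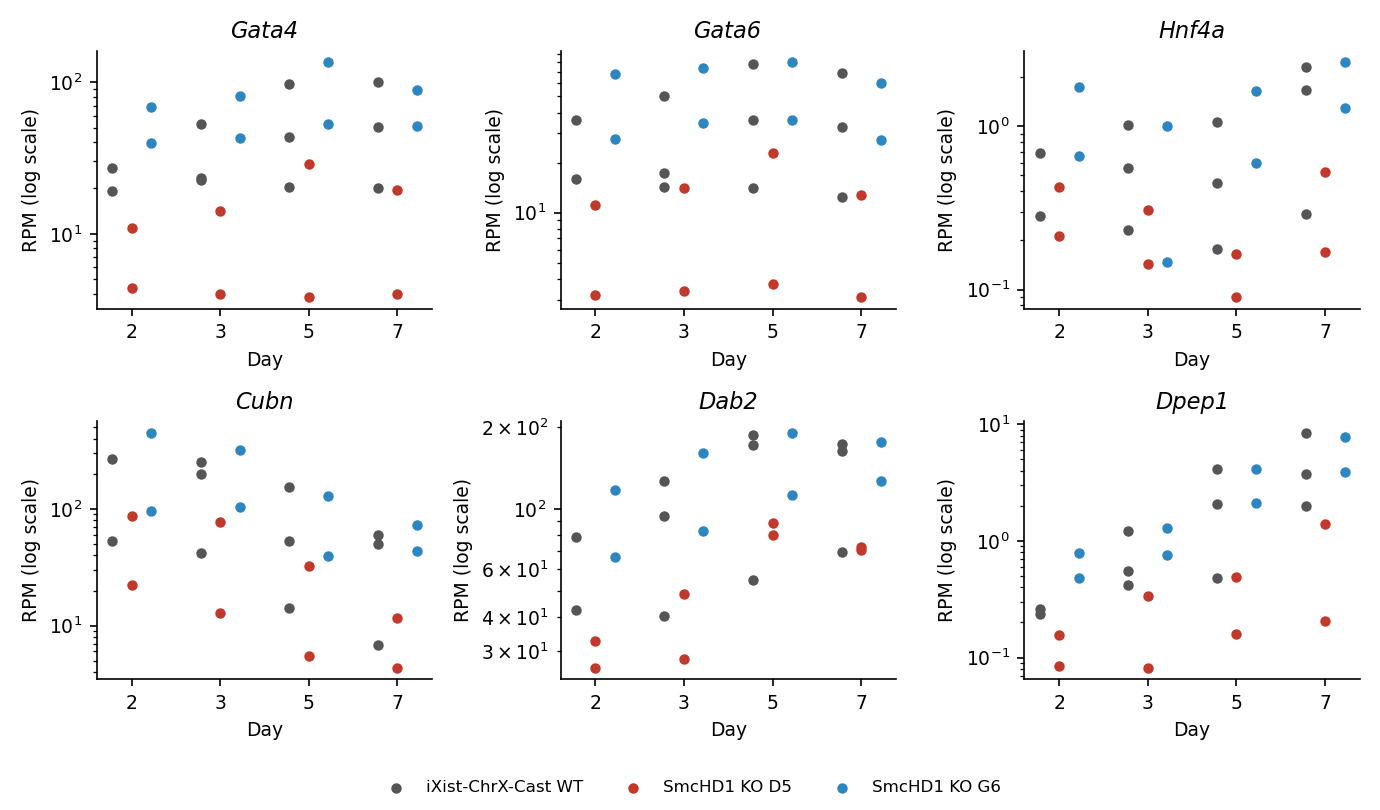
RPM on a log axis by day for Gata4, Gata6, Hnf4a, Cubn and Dab2 of the endoderm list and for Dpep1, with 1 point per replicate of WT, D5 and G6. For Gata4 D5 spans 3.83 to 28.7 RPM, WT 19 to 99.8 RPM and G6 39.7 to 135 RPM, and D5 overlaps WT at day 5.

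Other cell state lists had medians nearer to 0, apart from the 2-cell-like list. The counts of this and the next paragraph stand beside 3.36% higher and 4.8% lower over all genes tested, and in the shorter lists 1 call is already above those shares. Of 14 naive pluripotency genes 3 were higher and 1 lower (median 0.32). Nanog (0.62, SE 0.13, edgeR adjusted p = 0.00688) and Dppa3 (0.91), both pluripotency genes, lie in the chromosome 6 stretch, Fgf4 (0.67), the growth factor gene that drives exit from this state, does not, and Klf5 was lower (-0.42). Nanog stood at 9.96 and 11.5 RPM in WT and 13 and 21.2 in D5 at day 2, and at 13.4, 19 and 16.1 against 25.8 and 23.6 at day 7, above WT on 3 of 4 days. None of 7 core pluripotency genes (median 0.19), 11 neural precursor genes (median 0.21), 7 neuronal genes (median -0.19) and 6 trophoblast genes passed. Zic2 (0.46) was the only call among 9 primed epiblast genes. All 14 markers of the 2-cell-like state, a rare state of embryonic stem cells marked by the Zscan4 cluster, had an estimate above 0 (median 0.99), but only Usp17le (1.08) passed, these genes have near-identical copies, and within the NPCd style 8 passed and within the others 0. Feeder fibroblasts had been removed by preplating, and of 9 of their markers Fbn1 was higher (0.63), and their summed level was above every WT replicate at day 2 (61.5 and 70.8 RPM in D5, 38.1 and 55.6 in WT) and day 3 (66.2 and 86.1 in D5, 45.9 to 58.1 in WT). At days 5 and 7 it overlapped (89.3 to 170 and 91.2 to 223 RPM in D5, 75.6 to 122 and 78.6 to 220.4 in WT). The part of these cells in the results at days 2 and 3 was not tested.

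Among these lists too, several calls around SmcHD1 and Xist lay in these stretches. Of 24 genes of SMC complexes and their partners, Pds5a (-0.33), Pds5b (-0.32) and the condensin gene Ncapg (-0.25), all on chromosome 5, were lower, and the condensin gene Ncapd2 (0.87, SE 0.13, edgeR adjusted p = 0.00043) in the chromosome 6 stretch was higher. Ncapd2 reached 522 and 527 RPM in D5 at day 7 against 155, 360.3 and 197 RPM in WT. Among 26 Polycomb genes, Pcgf3 (-0.34) and Kdm2b (-0.30) of chromosome 5 and Pcgf5 of chromosome 19 were lower and Aebp2 (0.41) of the chromosome 6 stretch was higher. Pcgf5, a subunit of the Polycomb complex that Xist recruits, lay below WT on all 4 days (-0.50, SE 0.12, edgeR adjusted p = 0.0127), and most at day 7, with 63.2 and 50.3 RPM in D5 against 74.1, 108 and 124 in WT. Of 18 Xist pathway genes, 3 were lower, among them Xist itself and its neighbour Ftx (-0.30). The p53 target list had 2 of 15 lower, Eda2r (-0.34) and Mdm2 (-0.33), the nuclear noncoding RNAs 3 of 11 lower, Airn, Neat1 (-0.64) and Pvt1 (-0.51), and the retinoic acid targets 1 of 7, Rarb (-0.82). Oas1a (-0.72, chromosome 5) of 11 interferon response genes was lower, and Psat1 (0.46) of 11 stress genes and Slc2a3 (0.91, chromosome 6 stretch) of 12 hypoxia and glycolysis genes were higher. The stress list had a median of 0.39, with 10 of 11 estimates above 0. The hypoxia and glycolysis list had a median of 0.18, with 11 of 12 above 0. Of 14 genes that escape silencing, Bgn (-0.81), Xist and Ftx were lower and Mid1 (0.47) was higher. Of 12 DNA methylation, 15 FGF, 10 BMP, 9 Wnt and 12 cholesterol genes 0 were called, and likewise of the 7 of 12 Notch and Sonic hedgehog genes and the 6 of 39 Hox genes that were high enough to be tested.

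Because Xist drives silencing, its level was followed by day. It went in WT from 6574 and 6423 RPM at day 2 to 10756, 8572 and 14420.2 at day 3, 15676, 20839.8 and 25157 at day 5, and 26443, 30441 and 35184 at day 7. D5 had 6464 and 3902, 8904 and 8576, 13879 and 14106, and 16192 and 14744 RPM. The groups overlapped at days 2 and 3, and D5 was below every WT replicate at days 5 and 7. The ratio of the means was 0.798, 0.777, 0.681 and 0.504 on the 4 days, but the change of the log2 difference from days 2 and 3 to days 5 and 7 was -0.40 (two-sided exact permutation p = 0.307). Over all days the difference was -0.61 (SE 0.14, edgeR adjusted p = 0.0133), -0.99 within the NPCd style and -0.37 within the others, and with R1 libraries alone its adjusted p was 0.0518. The Xist share from the Cast allele was 0.945 to 0.963 in D5 and 0.952 to 0.971 in WT, so nearly all of it came from the induced allele in both. Smchd1 RNA, counted over the whole transcript, does not check a small deletion. Its log2 difference was -0.17 (two-sided exact permutation p = 0.00133), and in edgeR -0.21 (SE 0.08, adjusted p = 0.0939).

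**Figure D4:**
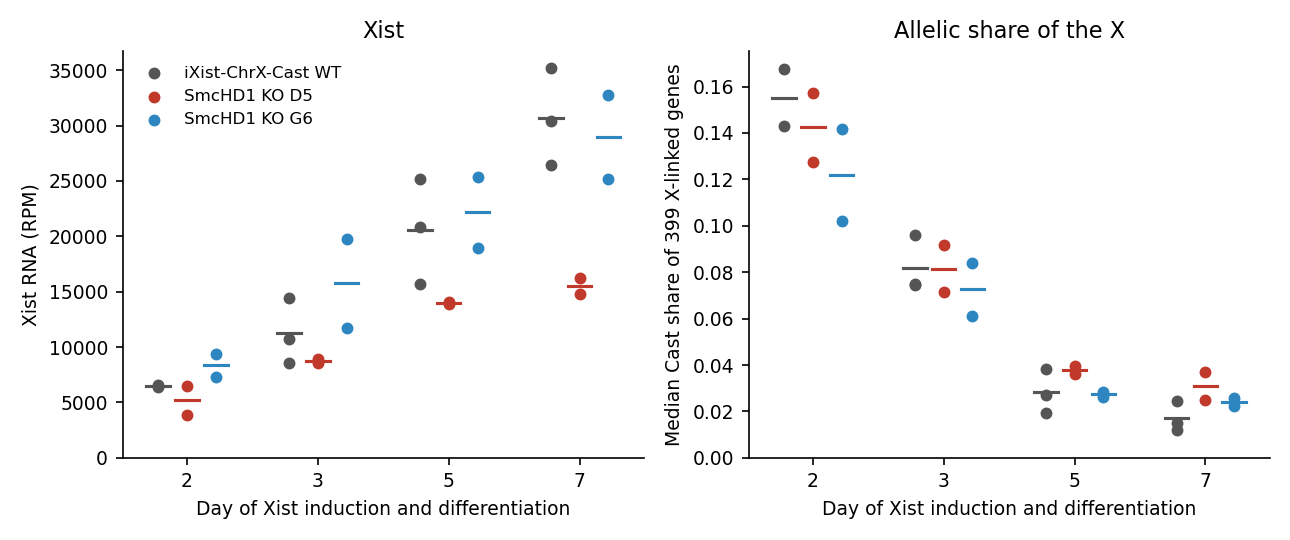
Xist RNA in RPM (left) and the median Cast share of 399 X-linked genes (right) by day, with 1 point per replicate and bars at the means of WT (n = 2 or 3), D5 (n = 2) and G6 (n = 2). D5 Xist ends at a mean of 15468 RPM at day 7 against 30689 in WT, and the D5 median share at day 7 (0.0250 and 0.0369) lies above the 3 WT replicates.

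The Cast share was compared over the 399 genes of the authors' ratio table. Its median went from 0.155 ± 0.0175 (SD, n = 2) in WT and 0.142 ± 0.0209 (SD, n = 2) in D5 at day 2 to 0.0819 ± 0.0124 (SD, n = 3) and 0.0816 ± 0.0143 (SD, n = 2) at day 3. At day 5 it was 0.0283 ± 0.00965 (SD, n = 3) in WT and 0.0377 ± 0.00249 (SD, n = 2) in D5, with overlap. At day 7 WT stood at 0.0118, 0.0152 and 0.0243 and D5 at 0.0369 and 0.0250, without overlap. The uninduced D5 cells had medians of 0.445 and 0.447. Over days 5 and 7 the difference was 0.0117 (two-sided exact permutation p = 0.04, where 0.01 is the smallest possible), over days 2 and 3 it was -0.00653 (exact permutation p = 0.533), and the change between the periods, 0.0182, did not pass (exact permutation p = 0.124). Leaving out any 1 of these replicates other than replicate 3 of WT at day 5 took the late p to between 0.05 and 0.15 (exact permutation), with differences of 0.00871 to 0.0146. The late difference was 0.000886 within the NPCd style and 0.0177 within the other styles, neither past the threshold (exact permutation p = 0.5 and 0.111), and with R1 libraries alone it was 0.00538 (exact permutation p = 0.32). R1 and R2 of D5 replicate 1 stood apart in the median share, at 0.0233 and 0.0473 at day 5 and 0.0244 and 0.0492 at day 7. At day 3 they stood at 0.0583 and 0.125. In G6 they were 0.0152 and 0.0372 at day 5 and 0.0125 and 0.0289 at day 7. What sets R1 and R2 apart was not tested.

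Gene by gene, 28 of 399 shares differed at days 5 and 7 (limma, adjusted p below 0.05; 7.02%), 27 of them higher in D5 (6.77%) by 0.00670 to 0.108, with a median of 0.0390, and 1 lower (0.251%). All 27 lay above every WT replicate on both days and were higher within both naming styles, but with naming style as a block in the fit 2 genes passed in place of 28. The 27 were called on these same replicates, so their separation and common sign follow in part from the selection. Of all shares compared, 305 genes had an estimate above 0 and 93 below, with a median of 0.00835. Within the NPCd style the median was 0 (193 genes above 0) and within the others 0.0134 (334 above 0). The count was 8 without replicate 2 and 10 without replicate 1 of WT at day 7, 9 without replicate 1 and 15 without replicate 2 of WT at day 5, 11 and 12 without replicate 1 of D5 at days 7 and 5, and 16 without replicate 2 of D5 at day 5. At days 2 and 3, 0 genes passed in limma (20 at an unadjusted p below 0.05) and 0 in edgeR on allelic counts (31 unadjusted), and 246 of 399 estimates were below 0. The change of the difference between periods passed for 0 genes in limma (49 unadjusted) and for 24 in edgeR on allelic counts.

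Kdm6a, a histone demethylase gene known to escape silencing, had the largest late difference (0.108, SE 0.028, limma adjusted p = 0.0498). Its share in WT went from 0.414 and 0.429 at day 2 through 0.370, 0.394 and 0.362 at day 3 and 0.203, 0.301 and 0.253 at day 5 to 0.145, 0.178 and 0.162 at day 7. In D5 it went from 0.407 and 0.429 through 0.394 and 0.381 and through 0.346 and 0.301 to 0.334 and 0.278. The groups overlapped at days 2 and 3, touched at day 5 and stood apart at day 7, when the exact 95% binomial intervals were 0.137 to 0.152, 0.171 to 0.185 and 0.155 to 0.170 in WT and 0.330 to 0.341 and 0.268 to 0.289 in D5. Such intervals cover counting error only. Of the other escape genes examined, Ddx3x had a difference of 0.0394 (limma adjusted p = 0.110), Kdm5c 0.00577 (adjusted p = 0.849) and Eif2s3x -0.0172 (adjusted p = 0.768).

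Fundc1, a mitophagy receptor gene that lies near Kdm6a on the X, was higher by 0.103 (SE 0.016, limma adjusted p = 0.0125). Its WT share was 0.0214, 0.0479 and 0.0435 at day 5 and 0.0287, 0.0441 and 0.0183 at day 7, against 0.144 and 0.0843, and 0.174 and 0.146 in D5. The other large differences were Nkap (0.0854), a transcriptional repressor gene, Vma21 (0.0844), an assembly factor of the vacuolar proton pump, Araf (0.0769), a RAF kinase gene, Ppp1r3f (0.0706), a glycogen phosphatase subunit gene, Mmgt1 (0.0590), a membrane magnesium transporter gene, and Zbtb33 (0.0511), which encodes the methyl-DNA reader Kaiso. Ppp1r3f was also higher over days 2 to 7 (0.0636, SE 0.014, limma adjusted p = 0.047), with 0 to 0.0513 in WT and 0.0741 to 0.127 in D5 at days 5 and 7, from only 39 to 71 and 79 to 208 allelic fragments. Shares of Zbtb33 varied widely between D5 replicates, at 0.0769 and 0.278 at day 2 and 0.278 and 0.113 at day 3. The lower genes were Mcf2 (-0.0403 at days 5 and 7; -0.0343 over days 2 to 7), a guanine nucleotide exchange factor gene, and Pdzd4 over days 2 to 7 (-0.0280). Ppp1r3f, Mcf2 and Pdzd4 were the 3 genes that passed over days 2 to 7 (0.752%; 1 higher, 0.251%, and 2 lower, 0.501%; 43 at an unadjusted p below 0.05). Their count was 0 without any 1 of 12 of the 19 replicates and 8 without replicate 1 of D5 or replicate 2 of WT at day 2. At day 7 G6 too lay above every WT replicate for Kdm6a (0.254 and 0.245) and Fundc1 (0.0520 and 0.05). So it did for Nkap (0.164 and 0.175, WT 0.0656 to 0.0919) and Vma21 (0.0770 and 0.128, WT 0.0270 to 0.0331). Araf (0.0775 and 0.128) and Mmgt1 (0.0950 and 0.119) were likewise above WT in G6. For Ppp1r3f G6 overlapped WT at day 7 (0.0379 and 0.0175), and for Zbtb33 it was below WT (0.0278 and 0). At day 5, however, G6 lay above every WT replicate for Ppp1r3f (0.0825 and 0.109) and Zbtb33 (0.0757 and 0.0714). So it did at day 5 for Fundc1 (0.0771 and 0.0729) and Vma21 (0.122 and 0.139). For Kdm6a (0.291 and 0.239), Nkap, Araf and Mmgt1 G6 overlapped WT at day 5.

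The 27 genes lay mostly on the first part of the X. Before 20 Mb 6 of 46 genes were higher, from 20 to 40 Mb 5 of 30, from 40 to 60 Mb 10 of 42 and from 60 to 80 Mb 2 of 66. From 80 Mb on, 1 of 31, 0 of 53, 0 of 36, 2 of 62 and 1 of 33 were higher in successive windows of 20 Mb. The median difference was 0.0209, 0.0375 and 0.0135 in the first 3 windows and 0.00144 to 0.00699 in the others. Sorted by how genes behave in fibroblasts that lack SmcHD1, a grouping taken from the study, 6 of 56 SmcHD1-dependent genes were higher (10.7%), 9 of 143 partially dependent genes (6.29%), 7 of 101 genes that are not dependent (6.93%), 1 of 18 escape genes and 4 of 81 genes without a class. The median difference was 0.0138 in the dependent class, 0.00953 in the partially dependent and 0.00567 in the class that is not dependent, beside 0.00835 over the table. At days 2 and 3 the dependent class had a median of -0.0218, with 14 of 56 above 0.

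**Figure D5:**
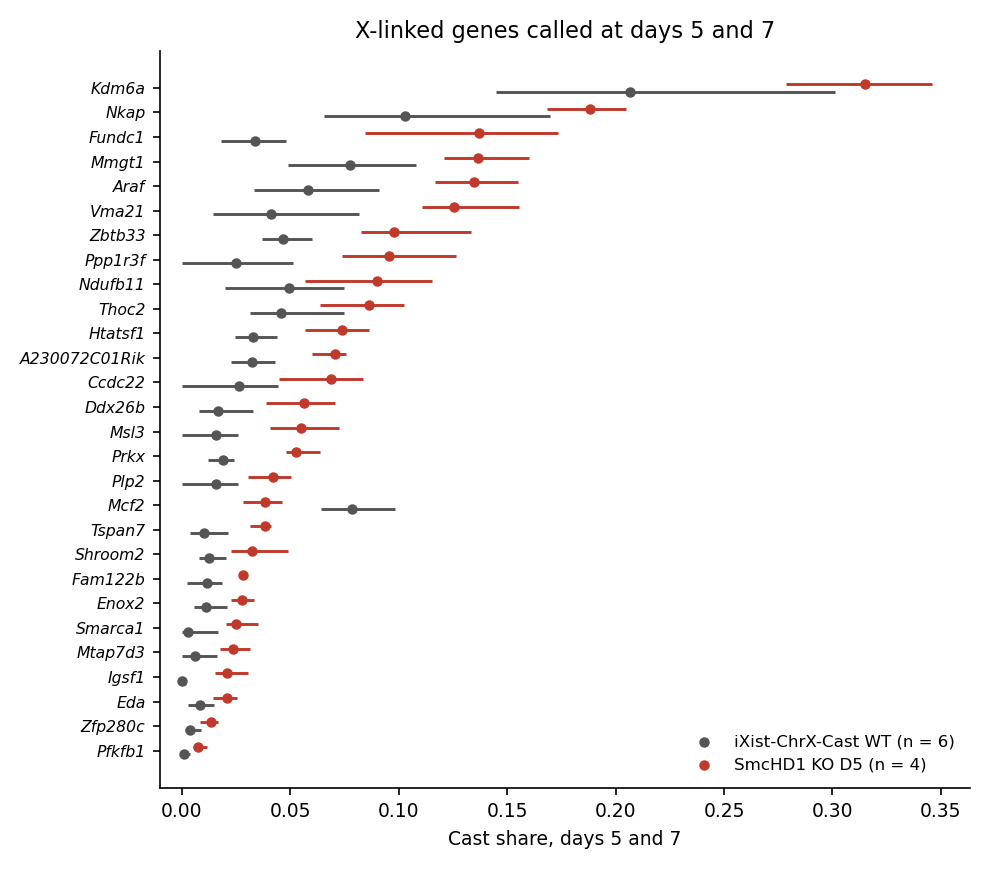
Mean Cast share at days 5 and 7 of the 28 X-linked genes called, with lines from the lowest to the highest replicate of WT (n = 6) and D5 (n = 4). D5 is higher in 27 of them, from Pfkfb1 (0.00670 higher) to Kdm6a (0.108 higher), and lower in Mcf2.

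D5 was last set directly against G6, with no WT library in the fit. Total RNA differed in 3141 of 15910 genes (19.7%), 1409 higher (8.86%) and 1732 lower (10.9%) in D5, and of all these 770 lay on chromosome 5, distal chromosome 6 or chromosome 11 (24.5%). Gata4 (-2.81), Gata6 (-2.62), Nrg2 (-2.89) and Prdm6 (-3.30) were lower than in G6, and Grb10 (1.37), Usp26 (2.78), Nxt2 (1.28) and Klf17 (1.94) higher, so D5 stood apart from the second KO clone in these genes too. The comparison of D5 with WT and that of D5 with G6 share the D5 libraries. Xist was lower than in G6 by -0.77 on the log2 scale (two-sided exact permutation p = 0.00154). The Cast share was higher in D5 for 6 of 399 genes (1.5%), which were Klhl13 (0.0970), Rab9 (0.0650), Gemin8 (0.0522), Ofd1 (0.0416), Wnk3 (0.0297) and Prdx4 (0.0271), named because they are few. None of these passed against WT over days 2 to 7, with differences of -0.00139 to 0.0394. The count was 0 without replicate 1 of D5 at day 2 or day 7 or replicate 2 of G6 at day 5, and 0 to 10 over all single replicates left out. The median share differed between the clones by 0.0117 (exact permutation p = 0.105).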

How the data were processed

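Fragments of chromatin-associated RNA were counted per gene and allele in libraries of WT, D5 and G6. Per the labels and the methods, the authors removed ribosomal RNA reads with Bowtie2 2.3.2, aligned to SNP-masked mm10 with STAR 2.4.2a, split alleles with SNPsplit and counted whole transcripts by strand with featureCounts. The version of featureCounts, 1.5.2, was read from the header of the deposited counts. The deposited files hold raw counts for all fragments and for each allele, and a deposited table gives the fraction of Cast over both alleles for 399 X-linked genes, which recomputed counts matched to within 5e-16. 26 per-sample value columns, in which a table of Dom counts carried names of Cast libraries, were not used. R1 and R2 counts were summed for total RNA, and their shares averaged.

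Total RNA was tested with edgeR 4.0.16 (TMM, default low-count filter, quasi-likelihood, day as a factor) and shares with limma 3.58.1 in R 4.3.3, with D5 and WT replicates of the days compared and Benjamini-Hochberg adjustment over all genes at 0.05. DESeq2 1.42.0 was an alternative. Medians, Xist and Smchd1 were tested by exact permutation within days in Python 3.11.15, on log2 RPM for the 2 genes. Precision follows depth, between 20742617 and 31107643 fragments per library of D5 and WT. The study describes replicates as separate time courses, and those of D5 come from 1 clone. The p-values measure the spread between replicates within days, not between clones. Neither the main fits nor the permutations held a term for time course, so replicates of different days were treated as independent. Ties between days of 1 time course are thus not taken into account. On simulated counts for D5 against WT at days 2 to 7 (15862 genes), 67, 67 and 66 genes were changed 1.5-fold, 2-fold and 4-fold. Of these 47.8%, 82.1% and 98.5% were recovered. Unchanged genes made up 14 of the calls (8.43%), at the adjusted p threshold of 0.05. On simulated shares at days 5 and 7 (399 genes), 13.3% of differences of 0.03 and 80.0% of 0.1 were recovered, with 0 unchanged genes called. Simulated replicates were independent, without structure by naming style or by R1 and R2. Simulated shares also had no day effect and a spread set by hand. False calls that come from such structure were therefore not measured.

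Genes named were the 12 highest and 12 lowest log2 fold changes among called genes separated from WT on at least 3 of 4 days, the 8 largest called share differences at days 5 and 7, all called over days 2 to 7, called members of 27 lists, Xist, Smchd1 and escape genes. The comparison and the lists were chosen with earlier results of these data known. The endoderm list, the edges of stretches, the genes called at days 2 and 3 and the alternatives by naming style and by day were chosen after their values were seen. Some genes counted in these lists are not reported here by name. Alternatives were the normalization, filters, R1 and R2 apart, blocks and single replicates left out.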

Additional observations from a re-analysis of the deposited data

Results flagged for a closer look

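The same induction and day factor gave different totals in the knockout clones, and 3141 genes differed in a direct test of D5 against G6 (edgeR, adjusted p below 0.05), 1409 higher and 1732 lower in D5. The Cast share differed directly between the clones for 6 genes, all higher in D5 (limma, adjusted p below 0.05). In the uninduced D5 libraries, which entered no comparison, the median Cast share of genes of chromosome 6 from 120 Mb was 0.648 and 0.669, against 0.483 in uninduced G6.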

How the results depend on the processing

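Counts of total RNA calls over days 2 to 7 (1294) were 851 with R1 libraries only, 2011 within the NPCd style, 353, 404 and 344 without day 3, 5 or 7, 503 without chromosomes 5, 6 and 11, and 803 to 1491 with single replicates left out. At days 2 and 3 (24) they were 298 in DESeq2, 45 with library totals, 79 with no filter, 3 with R2 only, 1 without those chromosomes, and 0 to 7 with single replicates left out. At days 5 and 7 (139) they were 890 in DESeq2, 655 with R1 and R2 separate, 57 with R1 only, 0 without those chromosomes, and 9 to 153 with single replicates left out. Against G6 (3141) the count was 1754 with R2 only and 2271 to 4543 with single replicates left out. The causes were not tested.

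Counts of shares over days 2 to 7 (3) were 0 on the log2 ratio, 12 in edgeR, 0 with R2 only, 5 without day 2, 0 without day 3, 5 or 7, and 0 to 8 with single replicates left out. At days 5 and 7 (28) they were 6 on the log2 ratio, 46 in edgeR, 18 with R1 and R2 pooled, 7 with R1 only, 14 with R2 only, and 8 to 39 with single replicates left out. The period test (0) gave 24 in edgeR and 0 to 1 with single replicates left out. Against G6 (6) they were 23 on the log2 ratio, 63 in edgeR, 17 with at least 20 allelic fragments, 2 pooled, 0 separate, 11 with R1 only, 0 with R2 only, and 0 to 10 with single replicates left out.

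The median share over all days (0.00256) was -0.00474 with R1 only and -0.00289 within the NPCd style, and -0.00114 to 0.00627 with single replicates left out. At days 2 and 3 it was 0.00179 with R2 only and -0.0139 to 0.000873 with single replicates left out. At days 5 and 7 (0.0117, exact permutation p = 0.04) it lost its call at 0.0121 (R1 and R2 separate), 0.00538 (R1 only), 0.000886 (NPCd), 0.0177 (other styles), 0.0114 (mean over genes) and 0.0114 (at least 20 fragments), and gave 0.00871 to 0.0146 with single replicates left out. Within the NPCd style Xist (-0.89) and Smchd1 (-0.24) missed the threshold in a design whose smallest exact permutation p is 0.125. Over all replicates the differences in log2 RPM were -0.55 for Xist (two-sided exact permutation p = 0.00183) and -0.17 for Smchd1. With single replicates left out they were -0.64 to -0.46 and -0.20 to -0.14. Kdm5c at days 5 and 7 turned to -0.000192 with R1 only.

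Same-numbered D5 and WT samples deviated together in 5 of 8 pairs (r over 0.1; lowest -0.471), so the numbers were not taken to pair the samples. With the replicate block, total RNA counts were 2244, 143, 473 (days 2 to 7, 2 and 3, 5 and 7) and 5226 (against G6), share counts 0 (days 2 to 7) and 13 (against G6), the late median share 0.0160 (exact permutation p = 0.125) and Eif2s3x turned to 0.00136. With a block by naming style the counts were 2245, 382, 1546 and 5226 for total RNA, and 0, 2 (days 5 and 7) and 13 for shares. Of 2803 alternative values for 81 named genes in total RNA, 2397 kept their call, 403 lost it, 3 gained one and 0 reversed. Of 304 such values for 14 genes in the Cast share, 182 kept their direction and their side of the threshold, 120 lost their call and 2 reversed.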
